A study of Homo sapiens with 8 samples.

Results

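The genes described here are 10 transcription factors that mark the ovarian and Mullerian lineages: PAX8, PAX2, WT1, SOX17, EMX2, MECOM, ESR1, NR2F2, GATA4 and FOXL2. They were chosen by name, and each was represented by the probe set that the platform annotation ties to that symbol alone, taking the one with the highest mean where a gene had more than 1. By this rule 9 of the 10 were measured, out of 18417 genes in all. NR2F2 was not analysed here, as the annotation table used here ties no probe set to its symbol alone. The study used 8 Affymetrix arrays of the type Human Gene 1.0 ST, each carrying RNA from 1 sample of a human ovarian carcinoma cell line. There were 4 groups of 2 arrays: A2780 with temsirolimus for 48 h, A2780 with temsirolimus for 24 h, untreated A2780CP20 and untreated A2780. Temsirolimus, an ester of rapamycin, blocks the mTORC1 kinase complex, and A2780CP20 is known as a cisplatin-resistant derivative of A2780. The labels give no dose of the drug, nor do they state whether the untreated cells received its solvent, DMSO. All cells grew in RPMI medium with serum. Each condition rests on a single cell line, and the labels do not say that the 2 samples of a group came from separate cultures, so the spread behind each p-value is that of these samples alone and may be technical.

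The Mullerian ducts give rise to the fallopian tubes, the uterus and the upper vagina, whereas the ovary's own somatic cells come from the gonadal ridge. PAX2 and EMX2 are needed to form the duct and the neighbouring kidney, and PAX8 and WT1 are used by pathologists as markers of serous carcinoma. GATA4 and FOXL2 act in gonadal somatic cells, FOXL2 being the factor that maintains granulosa cells. ESR1 and NR2F2 are nuclear receptors, SOX17 is an endodermal factor that the fallopian tube epithelium also expresses, and MECOM is a zinc finger regulator best known from myeloid leukaemia and often amplified in ovarian carcinoma.

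Promoter sequences are shown for FOXL2, which had the smallest adjusted p among the measured factors, for ESR1, which had the largest called difference, and for MECOM, whose probe sets disagreed. They are RefSeq sequences of build GRCh38.p14, from 250 bases before to 50 bases after the gene's annotated start, written 5′ to 3′ on the gene's strand. Capitals mark GC boxes, the letters GGGCGG or their reverse complement. FOXL2 lies on the minus strand at chr3:138947088-138947387, MECOM on the minus strand at chr3:169663663-169663962 and ESR1 on the plus strand at chr6:151656422-151656721.
FOXL2: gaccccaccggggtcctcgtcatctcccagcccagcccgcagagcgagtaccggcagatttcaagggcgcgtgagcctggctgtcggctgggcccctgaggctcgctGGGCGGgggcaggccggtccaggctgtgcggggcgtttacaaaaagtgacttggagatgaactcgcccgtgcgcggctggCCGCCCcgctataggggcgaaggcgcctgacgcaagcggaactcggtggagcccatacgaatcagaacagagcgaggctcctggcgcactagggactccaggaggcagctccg
MECOM: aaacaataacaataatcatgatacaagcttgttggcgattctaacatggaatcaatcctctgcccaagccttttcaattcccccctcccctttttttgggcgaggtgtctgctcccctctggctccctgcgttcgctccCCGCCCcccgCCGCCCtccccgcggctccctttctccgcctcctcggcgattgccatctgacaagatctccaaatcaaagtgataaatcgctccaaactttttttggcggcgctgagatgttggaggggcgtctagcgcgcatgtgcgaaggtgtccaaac
ESR1: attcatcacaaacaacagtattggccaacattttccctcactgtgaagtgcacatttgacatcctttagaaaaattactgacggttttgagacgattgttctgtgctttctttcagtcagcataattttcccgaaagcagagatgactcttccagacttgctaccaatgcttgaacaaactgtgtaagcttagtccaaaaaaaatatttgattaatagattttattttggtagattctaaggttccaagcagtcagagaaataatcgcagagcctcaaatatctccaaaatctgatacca

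The printed windows differed in composition. Only this window of each gene was examined, so the counts do not describe promoters at any other start sites of these genes. FOXL2 had 28 CpG dinucleotides and a GC content of 68.0%, MECOM had 19 and 54.7%, and ESR1 had 4 and 36.3%. A count at least as high was found in 25.9% of the 27305 promoters of this length for FOXL2, in 43.0% for MECOM and in 74.7% for ESR1. GC boxes occurred 2 times each in FOXL2 and MECOM and 0 times in ESR1, and 44.6% of all promoters held at least 1. The SOX core ACAAT was found on either strand 2 times in MECOM, 1 time in ESR1 and 0 times in FOXL2, against 28.0% of all promoters with a match. None of the 3 held TATAAA, present in 12.0% of promoters, or GATAAG, present in 6.4%, on either strand. By their letters GC boxes and the SOX core cannot overlap each other. A match of letters is a description of the window and not a binding site.

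The arrays labelled 24 h stood apart from the rest. Across genes their correlation with the other 6 arrays was 0.9503 to 0.9519, against 0.9937 to 0.9956 between the 48 h pair and untreated A2780. Between the subline A2780CP20 and untreated A2780 it was 0.9819 to 0.9887. These values are across genes, which are not independent replicates. Results on the 24 h arrays are therefore given under their label, and the other comparisons were also fitted without them. Median log2 intensity was 6.66 to 6.72 on every array, and the number of arrays limits the precision.

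The levels of the lineage factors were low to moderate. Olfactory receptor genes, which are hardly expressed outside the nose, served as a guide to low signal: the 95th percentile of 361 such genes lay between 5.98 and 6.22 log2 units on the 8 arrays. PAX8, PAX2, SOX17, GATA4 and FOXL2 lay above it on every array. ESR1 and MECOM lay below it on all 8 arrays, EMX2 on 4 and WT1 on 2. Probes differ in affinity, so this comparison cannot tell whether a gene is expressed, and a difference of a dim gene can be understated. Of 15 measured markers of epithelial ovarian carcinoma, 8 lay above that percentile on both arrays at 48 h, 9 at 24 h, 8 in A2780CP20 and 9 in untreated A2780. EPCAM, MUC16, CDH1, CLDN4, ELF3 and CD24 were the 6 that did not pass it in untreated A2780.

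**Figure D1:**
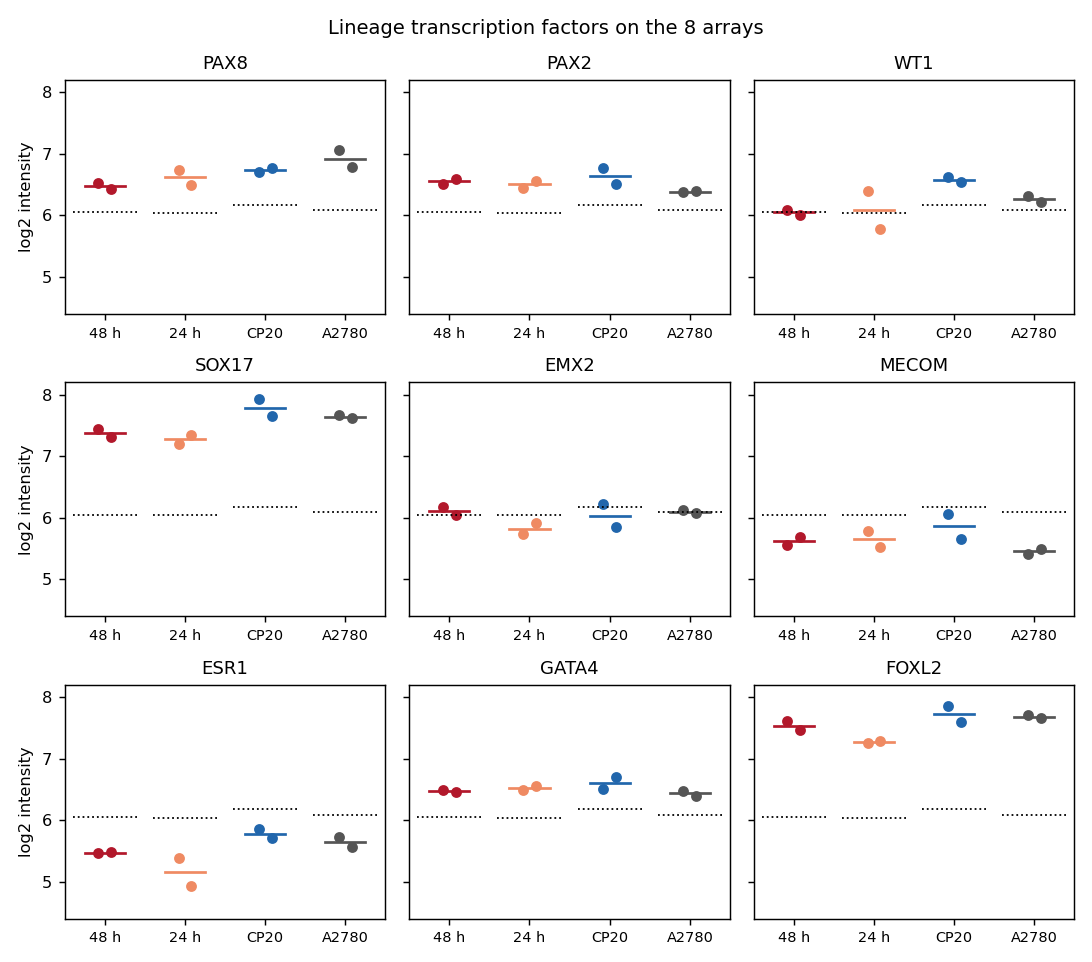
Log2 intensity (y axis) of the 9 measured lineage factors on each array, by group (x axis: A2780 with temsirolimus for 48 h and 24 h, untreated A2780CP20 as CP20, untreated A2780). Points are the 2 arrays, solid lines their mean, and dotted lines the group's mean 95th percentile of olfactory receptor genes; within a gene the 8 values span 0.30 (GATA4) to 0.92 (ESR1).

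The paired box factors were ordered in opposite directions between untreated A2780 and the other arrays. Neither had an adjusted p under 0.05 (limma) in any comparison of the full fit. How many of all genes showed such orders of arrays was not counted, here or for the factors below. PAX8 read 6.52 and 6.43 at 48 h, 6.74 and 6.49 at 24 h, 6.71 and 6.77 in A2780CP20, and 7.06 and 6.78 in untreated A2780. Both untreated arrays were the highest, but the lower of them, at 6.78, was barely above A2780CP20 replicate 2, at 6.77. PAX2 read 6.51 and 6.59 at 48 h, 6.44 and 6.56 at 24 h, 6.76 and 6.51 in A2780CP20, and 6.37 and 6.40 in untreated A2780. Here both untreated arrays were the lowest of the 8, with the nearest other reading at 6.44.

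WT1, a zinc finger factor of the kidney, gonad and mesothelium, read 6.09 and 6.01 at 48 h, 6.40 and 5.77 at 24 h, 6.62 and 6.54 in A2780CP20, and 6.32 and 6.21 in untreated A2780. The 2 arrays at 24 h spanned both sides of the untreated pair, and the A2780CP20 pair was the highest. EMX2, a homeobox factor of the urogenital ridge, read 6.18 and 6.04 at 48 h, 5.74 and 5.91 at 24 h, 6.22 and 5.85 in A2780CP20, and 6.13 and 6.07 in untreated A2780. The arrays at 24 h did not overlap the untreated or the 48 h pair, but A2780CP20 replicate 2 lay between the 2 arrays at 24 h.

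SOX17 read 7.44 and 7.31 at 48 h, 7.20 and 7.35 at 24 h, 7.92 and 7.65 in A2780CP20, and 7.66 and 7.62 in untreated A2780. All 4 drug-treated arrays were below all 4 untreated ones. Against untreated A2780 the adjusted p (limma) was 0.0444 at 24 h, close to the threshold of 0.05, and 0.451 at 48 h. FOXL2 read 7.61 and 7.46 at 48 h, 7.26 and 7.29 at 24 h, 7.86 and 7.59 in A2780CP20, and 7.70 and 7.66 in untreated A2780. The 24 h pair was the lowest, with no overlap with any other group. GATA4, which works with its cofactor ZFPM2 in the gonad and heart, read 6.49 and 6.45 at 48 h, 6.49 and 6.56 at 24 h, 6.51 and 6.70 in A2780CP20, and 6.47 and 6.40 in untreated A2780. Its 8 values spanned 0.30 log2 units, the narrowest range among the 9 factors.

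ESR1, which encodes oestrogen receptor alpha, read 5.47 and 5.48 at 48 h, 5.38 and 4.93 at 24 h, 5.85 and 5.71 in A2780CP20, and 5.72 and 5.57 in untreated A2780. The arrays at 24 h were the lowest pair, and 24 h replicate 2 lay well below its partner. MECOM, by its brighter probe set, read 5.55 and 5.68 at 48 h, 5.78 and 5.52 at 24 h, 6.06 and 5.66 in A2780CP20, and 5.41 and 5.50 in untreated A2780. The untreated pair was the lowest of the 8 arrays.

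Between A2780CP20 and A2780, a comparison that asks how the subline differs from its parent, 0 of the 9 factors were called (adjusted p under 0.05, limma), 2 had an unadjusted p under 0.05, and 18.4% of all 18417 genes were called. MECOM measured 0.41 ± 0.15 (difference of log2 means ± SE, n = 2 arrays per group, adjusted p = 0.093), WT1 0.32 ± 0.18 (adjusted p = 0.257) and PAX2 0.25 ± 0.11 (adjusted p = 0.148). PAX8 measured -0.18 ± 0.13 and EMX2 -0.07 ± 0.13, the only negative values. The 95% intervals of the 9 differences ran from -0.47 at the lowest to 0.74 at the highest, so each lay within a 2-fold change; these intervals are per gene and not adjusted. The median over the 9 was 0.15 and over all genes 0.03. Without A2780CP20 replicate 2, which leaves 1 array in that group, PAX2 measured 0.38 and MECOM 0.61. Without A2780CP20 replicate 1 instead, PAX2 measured 0.125 and MECOM 0.205, so the size of both differences depended on which array was kept. Without both arrays labelled 24 h the count of called factors was again 0.

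At 24 h the comparison asks how the arrays so labelled differ from untreated A2780. Here and below, rose and fell at 24 h describe that difference. Whether it came from the drug or from the identity of the samples was not tested. FOXL2 fell by 0.41 (SE 0.11, adjusted p = 0.0251), ESR1 by 0.49 (SE 0.15, adjusted p = 0.0338) and SOX17 by 0.37 (SE 0.12, adjusted p = 0.0444). These 3 of 9 compare with 30.1% of all genes, so the share was near the background. PAX8 (-0.31 ± 0.13, adjusted p = 0.108), EMX2 (-0.28 ± 0.13, adjusted p = 0.169) and WT1 (-0.18 ± 0.18) were not called, nor were MECOM (0.20 ± 0.15), PAX2 (0.12 ± 0.11) and GATA4 (0.09 ± 0.10). The median was -0.28 over the 9 factors and 0.01 over all genes. Their 95% intervals lay between -0.82 and 0.53. By the probe set standing for each gene 0 of 9 moved 2-fold, against 6.41% of all genes, whereas the dimmer MECOM set did (2.21-fold, described below).

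The 3 calls were close to the threshold. Without untreated A2780 replicate 1 all 3 ended (adjusted p = 0.179 for ESR1, 0.173 for SOX17 and 0.119 for FOXL2), and likewise without replicate 2 (0.0746, 0.126 and 0.0863 in the same order). Without 24 h replicate 1 SOX17 (adjusted p = 0.236) and FOXL2 (0.12) ended, while ESR1 stood at -0.72 (0.00759) and WT1 at -0.50 (0.0298). Without 24 h replicate 2 all 3 ended again (0.225 for ESR1, 0.0801 for SOX17 and 0.0963 for FOXL2). With quantile normalization SOX17 (0.0862) and FOXL2 (0.0513) missed the threshold, and with every probe set tested all 3 did (0.0862 for SOX17, 0.0747 for ESR1 and 0.0549 for FOXL2). With median centring SOX17 missed it (0.0651), and ESR1 did with only the 2 groups fitted (0.076) and with the mean of its probe sets (-0.20, 0.279).

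At 48 h versus untreated A2780, 0 of the 9 factors were called by limma, 1 had an unadjusted p under 0.05, and 0.179% of all genes were called. That 1 was PAX8, at -0.45 ± 0.13 (unadjusted p = 0.00698, adjusted p = 0.262). SOX17 followed at -0.27 ± 0.12 (adjusted p = 0.451), and EMX2 (0.01 ± 0.13) and GATA4 (0.04 ± 0.10) were nearest to 0. The intervals ran from -0.73 to 0.50, and the count was also 0 without both arrays labelled 24 h. PAX8 thus had the largest difference among the 9 factors between the 48 h arrays and untreated A2780. Its 48 h pair did not overlap the untreated pair, but the same held for every other factor except EMX2 and GATA4. How often the pairs were separate over all genes was not counted.

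Between 48 h and 24 h, 0 of 9 were called by limma, with 1 unadjusted p under 0.05 (FOXL2, 0.26 ± 0.11, adjusted p = 0.117), and 31.0% of all genes were called. ESR1 measured 0.32 ± 0.15 and EMX2 0.29 ± 0.13 (adjusted p = 0.136 and 0.148), and the intervals of all 9 lay between -0.44 and 0.65. The comparisons with untreated A2780 share its 2 arrays, and those at 24 h share theirs, so the values of a gene in different comparisons are not independent.

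**Figure D2:**
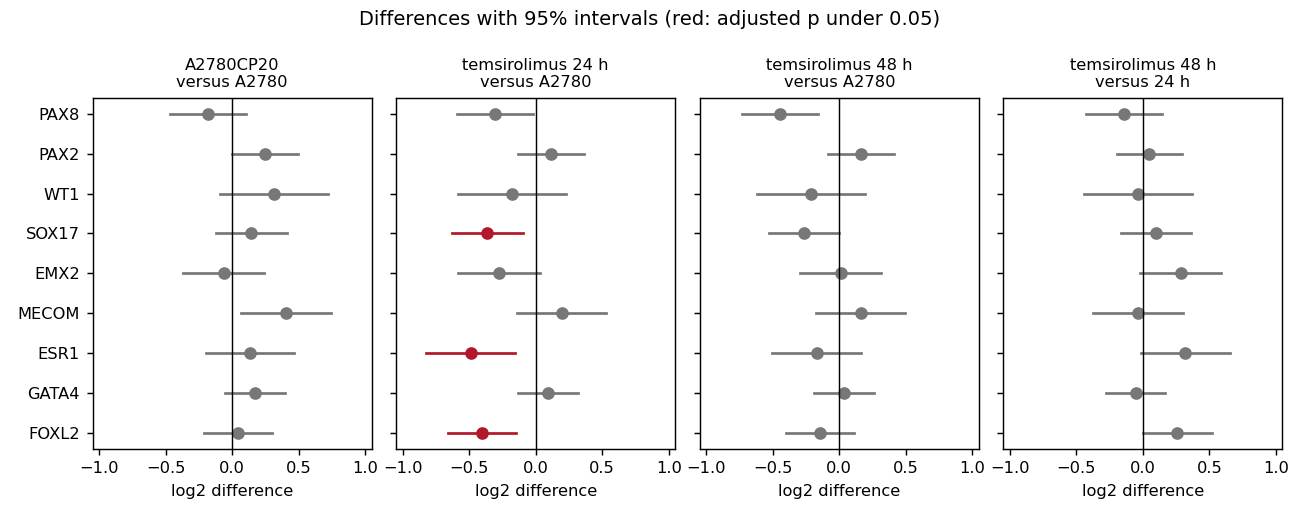
Difference of log2 means (x axis) for each measured lineage factor (y axis) in the 4 comparisons, with the 95% interval of the limma fit as a line. Red marks an adjusted p under 0.05: ESR1, SOX17 and FOXL2 at 24 h, all lower, and none elsewhere; every interval lies within -0.82 and 0.74.

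MECOM and ESR1 each had 2 probe sets, and those of MECOM gave different results. The dimmer MECOM probe set (8091972) read 5.06 and 4.75 at 48 h, 5.93 and 5.80 at 24 h, 4.81 and 5.01 in A2780CP20, and 4.74 and 4.70 in untreated A2780. Both arrays at 24 h were above all the others, whereas on the brighter set (8091991) they overlapped the 48 h and A2780CP20 pairs. With the dimmer set standing for the gene, MECOM rose by 1.15 ± 0.13 at 24 h (2.21-fold, adjusted p = 0.000202) and was lower by 0.96 on the log2 scale at 48 h than at 24 h (-0.96 ± 0.13, adjusted p = 0.00054). In A2780CP20 it measured 0.19 ± 0.13 (adjusted p = 0.333) and at 48 h versus untreated 0.19 ± 0.13 (adjusted p = 0.643). This use of the dimmer set was chosen after its values were seen.

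MECOM is known to produce a short form, EVI1, and a longer form, MDS1-EVI1, from separate start sites. In the annotation the dimmer probe set lists 13 transcript records and the brighter one 7, of which 2 are shared; the probe sets were not assigned to isoforms here. All MECOM readings of both probe sets lay below the olfactory receptor percentile of their array. The second ESR1 probe set (8122840) read 4.38 to 4.62 on the 8 arrays and measured 0.10 ± 0.10 at 24 h (adjusted p = 0.53), so the lower ESR1 level at 24 h was seen with 1 of its 2 probe sets.

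**Figure D3:**
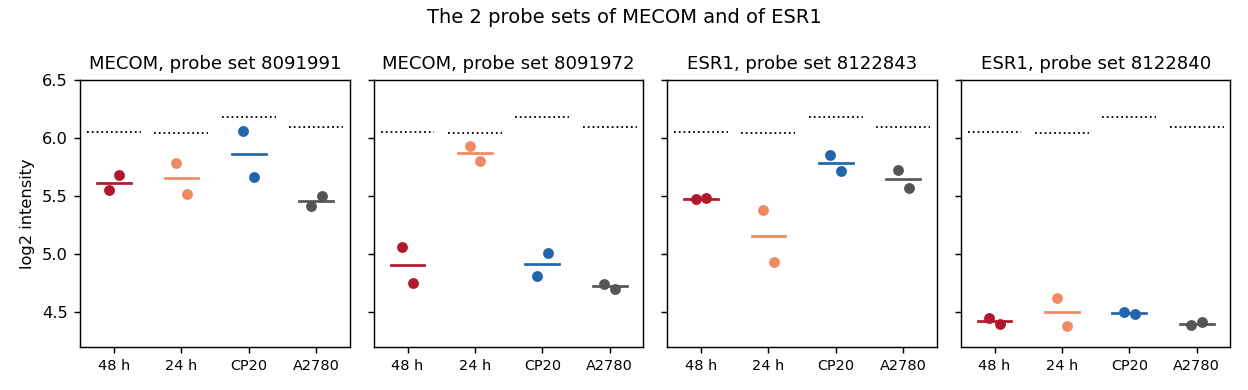
Log2 intensity (y axis) of both probe sets of MECOM and of ESR1 by group (x axis, as CP20 for A2780CP20). Points are arrays, solid lines group means and dotted lines the olfactory receptor percentile; only MECOM probe set 8091972 has its 24 h arrays, at 5.93 and 5.80, clear above the rest.

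Transcripts that run antisense to the factors were measured for WT1 and PAX8. WT1-AS read 5.75 and 5.27 at 48 h, 5.47 and 4.79 at 24 h, 5.99 and 5.57 in A2780CP20, and 5.47 and 5.59 in untreated A2780, and was called in none of the 4 comparisons. As for WT1 itself, the single lowest reading was 24 h replicate 2 and the highest A2780CP20 replicate 1. This was not particular to the pair. A2780CP20 replicate 1 was also the highest array for PAX2, SOX17, EMX2, FOXL2, ESR1 and the brighter MECOM set. For ESR1 24 h replicate 2 was also the lowest. All WT1-AS readings lay below the olfactory receptor percentile of their array. PAX8-AS1 read 4.49 and 4.52 at 48 h and 4.98 and 4.75 at 24 h (-0.36, adjusted p = 0.0308 for 48 h versus 24 h), all below the olfactory receptor percentile. That call ended with quantile normalization, with every probe set tested, with an intensity trend in the prior, without 24 h replicate 1 and without either 48 h array. Whether these probes separate the 2 strands was not examined here.

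Relatives from the same DNA-binding families included larger differences. Of 21 measured relatives, 3 rose and 2 fell at 24 h, 5 rose and 0 fell in A2780CP20, 0 were called at 48 h versus untreated (2 with an unadjusted p under 0.05), and 3 were higher and 4 lower at 48 h than at 24 h, against the same backgrounds of 30.1%, 18.4%, 0.179% and 31.0%. PAX6, a paired box factor of the eye and brain, read 5.71 and 5.58 at 48 h, 8.81 and 9.32 at 24 h, 5.54 and 5.65 in A2780CP20, and 5.80 and 5.77 in untreated A2780. It rose by 3.28 ± 0.15 at 24 h (adjusted p = 1.01e-06), while its relatives PAX2 and PAX8 did not pass the test there. In A2780CP20 the orphan receptor gene NR2F6, a relative of NR2F2, rose by 0.75 ± 0.10 (adjusted p = 0.00307), GATA2 by 0.66 ± 0.11 (adjusted p = 0.00654) and SOX18, a relative of SOX17, by 0.48 ± 0.14 (adjusted p = 0.0492). The GATA2 call ended without untreated A2780 replicate 2, and that of SOX18 ended when any 1 of the 4 arrays compared was left out. NR2F1, the closest relative of NR2F2, read 9.67 to 9.96 on the 8 arrays.

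Among cofactors and targets of the factors, most genes did not pass the test at 24 h, and single genes differed widely. ZFPM2, the cofactor of GATA4 in gonad and heart, read 9.56 and 9.53 at 48 h, 5.77 and 6.0 at 24 h, 9.16 and 9.72 in A2780CP20, and 9.64 and 9.65 in untreated A2780. It fell at 24 h (-3.76 ± 0.17, adjusted p = 7.61e-07), where GATA4 itself measured 0.09 ± 0.10. Of the 13 partners and targets of GATA4 and FOXL2, 3 fell and 0 rose at 24 h: ZFPM2, SMAD3, a signal transducer that binds FOXL2 (-1.32 ± 0.11), and the cardiac partner gene NKX2-5 (-0.78 ± 0.12). That count was no larger a share than the 30.1% of all genes called. The list's median was -0.13, against 0.01 over all genes.

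Among 13 oestrogen receptor targets and cofactors, 3 fell and 1 rose at 24 h, a share near the 30.1% of all genes called, with a median of -0.19 against 0.01 over all genes. GREB1, an oestrogen-induced gene, read 6.58 and 6.59 at 48 h, 5.62 and 5.62 at 24 h, 6.67 and 6.65 in A2780CP20, and 6.77 and 6.89 in untreated A2780. Its difference at 24 h was -1.21 ± 0.09 (adjusted p = 1.53e-05). The coactivator gene NCOA2 (-1.04 ± 0.15) and the corepressor gene NRIP1 (-0.59 ± 0.14) were the others that fell, and the NRIP1 call ended without untreated A2780 replicate 2 and without 24 h replicate 1. XBP1, a factor of the secretory pathway, was higher by 0.41 log2 units there (adjusted p = 0.0208). None of the 13 was called in A2780CP20 or at 48 h versus untreated (4 and 2 had an unadjusted p under 0.05, limma).

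The lists around WT1 and the paired box factors gave 1 higher and 3 lower of 12, and 0 higher and 4 lower of 13, at 24 h; PAX2 is counted in the first list and WT1 in the second. Both shares were near the 30.1% of all genes called. CITED2, a coactivator that works with WT1 in the adrenal and gonadal ridge, rose by 2.23 ± 0.11 (adjusted p = 1.66e-06) and IGF1R, a growth factor receptor gene that WT1 represses, fell by 0.87 (adjusted p = 0.00013). The growth factor gene FGF18 read 9.44 and 9.53 at 48 h, 7.08 and 7.33 at 24 h, 9.35 and 9.47 in A2780CP20, and 9.63 and 9.55 in untreated A2780 (-2.39 ± 0.11 for 24 h versus untreated, adjusted p = 9.09e-07). SLC5A5, the thyroid iodide transporter gene that PAX8 activates, measured -1.45 ± 0.09 there (adjusted p = 6.77e-06). In A2780CP20 none of the 12 around WT1 was called by limma (4 with an unadjusted p under 0.05), and LHX1, a homeobox gene of duct and kidney, was the 1 call of the 13 (0.32 ± 0.09, adjusted p = 0.042), which ended without either untreated array and without A2780CP20 replicate 1.

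NR2F2 itself had no probe set tied to its symbol alone, but 13 genes of its endometrial and vascular pathways were measured. Of these 7 fell and 0 rose at 24 h, with a median of -0.42 against 0.01 over all genes and 30.1% of genes called. NRP2, a vascular receptor gene, read 10.36 and 10.39 at 48 h, 7.33 and 7.35 at 24 h, 9.90 and 10.12 in A2780CP20, and 10.16 and 10.15 in untreated A2780 (-2.82 ± 0.10, adjusted p = 1.94e-07 at 24 h). PTCH1, the hedgehog receptor gene (-1.49 ± 0.18), and BMPR2, a BMP receptor gene (-1.21 ± 0.24), fell as well. In A2780CP20 NOTCH1 (0.54 ± 0.09, adjusted p = 0.00536), HAND2 (0.45 ± 0.11) and FLT4 (0.31 ± 0.09, adjusted p = 0.0426) rose and ANGPT1 (-0.49 ± 0.11) fell. The HAND2 and ANGPT1 calls ended without either untreated array and with only the 2 groups compared. That of HAND2 also ended without A2780CP20 replicate 1 and with every probe set tested. FLT4 was not selected by the naming rule, and its call was not followed through the alternatives. None of the 13 was called at 48 h versus untreated (limma, 2 with an unadjusted p under 0.05).

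**Figure D4:**
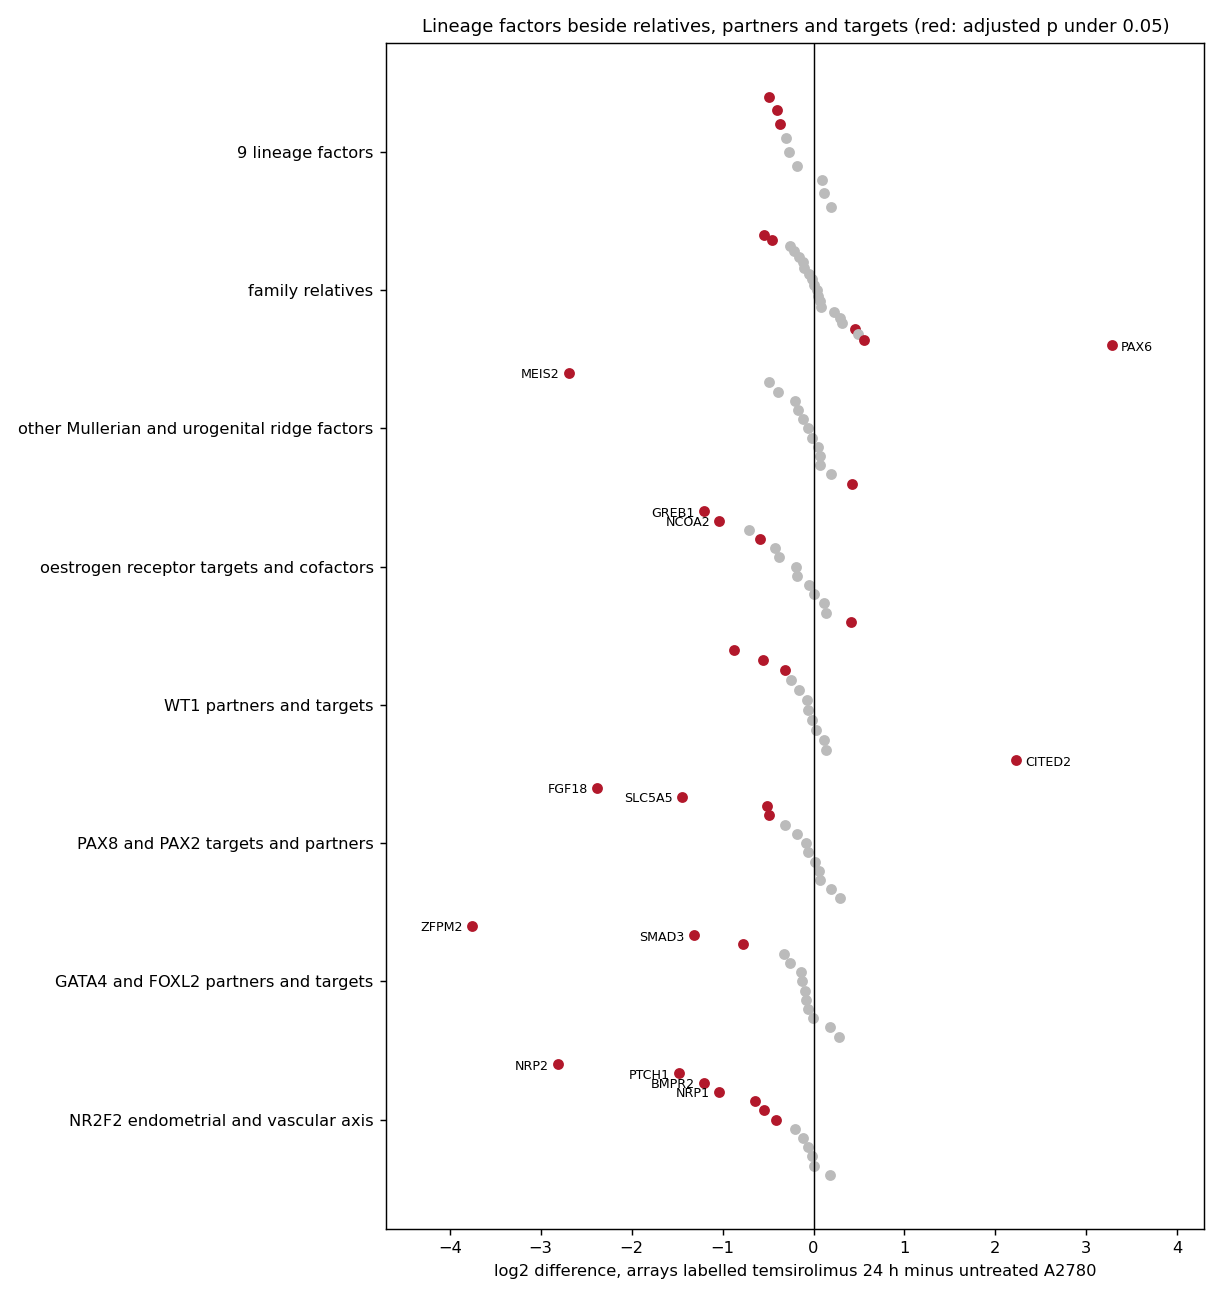
Difference of log2 means between the arrays labelled temsirolimus 24 h and untreated A2780 (x axis) for the 9 measured lineage factors and 7 lists of relatives, partners and targets (rows; points are genes, spread vertically within a row by rank only, and gene names mark differences of at least 1). Red marks an adjusted p under 0.05; the lineage factors lie between -0.49 and 0.20, and ZFPM2, at -3.76, and PAX6, at 3.28, lie farthest out.

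Other developmental factors of the urogenital ridge and gonad were read against 30.1% of all genes called at 24 h and 18.4% in A2780CP20. Of 13 other Mullerian and urogenital genes, 1 rose and 1 fell at 24 h and 1 rose and 1 fell in A2780CP20. MEIS2, a homeobox cofactor, read 10.78 and 10.87 at 48 h, 8.14 and 8.21 at 24 h, 10.31 and 10.67 in A2780CP20, and 10.89 and 10.85 in untreated A2780, a difference of -2.70 ± 0.12 at 24 h (adjusted p = 8.66e-07). Of 20 gonadal somatic genes, 1 fell and 0 rose at 24 h, the polycomb gene CBX2 (-1.0 ± 0.09, adjusted p = 7.15e-05). RSPO1, an ovary-determining ligand gene, rose in A2780CP20 (0.44 ± 0.12, adjusted p = 0.0417), a call that ended without either untreated array and without A2780CP20 replicate 1.

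Among the epithelial markers, EPCAM and KRT18 rose at 24 h (2.17, adjusted p = 1.44e-06, and 2.94, adjusted p = 1.6e-05). EPCAM read 5.48 and 5.56 at 48 h, 7.67 and 7.80 at 24 h, 5.26 and 5.34 in A2780CP20, and 5.45 and 5.68 in untreated A2780. KRT18, uncertain because of its many pseudogenes, read 6.95 and 7.58 at 48 h, 10.55 and 10.48 at 24 h, 6.98 and 7.49 in A2780CP20, and 7.55 and 7.61 in untreated A2780. These were the 2 of 15 epithelial markers that rose at 24 h, and 0 fell, against 30.1% of all genes called. The mean level of the list was 6.47 on both 24 h arrays against 6.16 to 6.18 on the untreated ones. The median difference of the 15 was only 0.045, against 0.01 over all genes, so the higher mean was not shared across the list. The part of these markers in the changes at 24 h was not tested. Of the 8 leukocyte and the 8 endothelial markers measured, 1 each, CD68 and CLDN5, lay above the olfactory receptor percentile in all 4 groups. At 24 h the leukocyte markers gave 1 lower, CD68 (-0.60, adjusted p = 0.01), and 1 higher, PTPRC (0.52, adjusted p = 0.00447); the CD68 call ended without untreated A2780 replicate 1 and without 24 h replicate 1. Of 10 endoderm markers, 6 lay above it in every group, SOX17 and GATA4 among them, together with GATA6, FOXA1, FOXA2 and HHEX. Tubal markers gave 0 calls of 8 in each comparison (limma, with 1 unadjusted p under 0.05 at 48 h versus 24 h, 0 at 24 h, 2 in A2780CP20 and 0 at 48 h versus untreated). For this list and those that follow, the shares of all genes called were 31.0%, 30.1%, 18.4% and 0.179% in the same order. With so few genes a list, these counts do not describe a cell type. Of 5 mesothelial markers 1, MSLN, was called, in A2780CP20 (0.35, adjusted p = 0.0472), and of 9 renal markers, which include PAX2 and PAX8, 2 fell at 24 h, CITED1 at -0.80 and SIX2 at -0.52. The MSLN call ended when any 1 of the 4 arrays compared was left out, and the SIX2 call without either untreated array and without 24 h replicate 2.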

How the data were processed

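Per the labels, total RNA was biotin-labelled and hybridized to Affymetrix Human Gene 1.0 ST arrays, 1 sample each. The authors deposited log2 intensities, 1 per probe set (33297) and array. Their medians were near-equal, so they were taken as already normalized between arrays, which was not shown. The log base was read from their range. The submitters' processing notes name Partek without a version, and no source used here gives the background correction, normalization or probe set summary. Groups and replicate numbers came from the titles.

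Of the probe sets 19460 had 1 symbol, 1754 several and 12083 none in the platform table. The highest-mean probe set stood for a gene (18417 genes, 769 with more than 1). All 8 arrays entered 1 linear model with limma version 3.58.1 in R version 4.3.3 (residual df 4, prior df 4.48), two-sided, with Benjamini-Hochberg adjustment over all genes; calls are adjusted p under 0.05. The fit was tested on simulated data. Members and lists (16 besides the factors, 23 genes on more than 1) were chosen with earlier results of these data known. Beside the factors, the naming rule selected up to 3 called genes per list and comparison with the largest change, of which only some are described; genes outside it, named to complete a count or describe a marker, were chosen after their values were seen. The genes closest in profile were to be named for factors changing at least 2-fold. None did by the probe set that stood for the gene, and the dimmer MECOM set (2.21-fold at 24 h) was not used for this. Sensitivity alternatives covered normalization, filters, probe sets, arrays, the prior and a replicate block. Same-numbered arrays' deviations correlated at 0.002 to 0.181, so the numbers were not treated as pairing the samples. No columns were left unmapped. Figures used matplotlib version 3.10.9.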

Additional observations from a re-analysis of the deposited data

How the results depend on the processing

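The limits of these results lie in 2 arrays a group, in low signal and in the standing of the arrays labelled 24 h. The cause of each change below was not tested.

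Of the 9 factors, the number called at 24 h was 3, and 1 with quantile normalization, 0 with every probe set tested (counting the brighter set of each gene; the dimmer MECOM set passed there, adjusted p = 0.00149) and 0 to 2 when 1 array was left out; with median centring and with the dimmest 25% of genes left out it was 2. In A2780CP20 it was 0, and 0 to 2 when 1 array was left out. At 48 h versus 24 h it was 0, and 1 with quantile normalization (EMX2), 1 with the mean of probe sets (MECOM), 1 with the lower-mean probe sets of MECOM and ESR1 (chosen after seeing the data) and 0 to 1 when 1 array was left out. At 48 h versus untreated A2780 it was 0 in every alternative run. At 24 h the mean of probe sets gave 3, with MECOM, which was higher, called in place of ESR1.

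Over all genes, 3388 were called in A2780CP20, 1022 with only the 2 groups compared and 974 to 5543 when 1 array was left out. At 24 h the count was 5551, and 3621 to 3919 when 1 array was left out. At 48 h versus untreated it was 33, 68 with an intensity trend in the prior and 4 to 6 when 1 array was left out, and at 48 h versus 24 h it was 5702, and 3715 to 3838.

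Signs of differences that were not called turned in 7 gene and comparison pairs when 1 array was left out. The ranges were -0.25 to 0.12 for EMX2 and -0.09 to 0.18 for FOXL2 in A2780CP20, -0.50 to 0.14 for WT1 at 24 h, -0.06 to 0.08 for EMX2 at 48 h versus untreated, and -0.01 to 0.11 for PAX2, -0.35 to 0.28 for WT1 and -0.17 to 0.10 for MECOM at 48 h versus 24 h. Quantile normalization turned WT1 (0.0431) and MECOM (0.05) there. The lower-mean probe set turned ESR1 to 0.10 at 24 h, 0.025 at 48 h versus untreated and -0.075 at 48 h versus 24 h.

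The replicate block left the 3 calls at 24 h and the counts of 0 in place and gave 3555 genes in A2780CP20; same-numbered arrays were not shown to deviate together. Of the other genes that the naming rule selected, not all of which are described above, 20 of 28 at 24 h, 22 of 29 at 48 h versus 24 h and 2 of 14 in A2780CP20 (NR2F6 and NOTCH1) were called in every alternative run.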
